A study of Mus musculus with 72 samples.

Results

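The genes described here make or break down glucose in the liver or control those steps: G6pc, Pck1, Fbp1, Pklr, Slc2a2, Ppargc1a, Foxo1 and Irs2. They were taken by symbol from the liver gene count table, which lists glucose-6-phosphatase under G6pc, and they are 8 of its 22823 genes. All 8 passed the filter on low counts that left 20249 genes for testing. RNA-seq counts came from 36 liver libraries of C57BL/6 mice that ate an MCD diet, which lacks methionine and choline, or an isocaloric control diet, for 11 days. The mice were housed singly, lived in a cycle of 12 h light and 12 h dark for 10 days, and were killed in constant darkness on day 11 at circadian time (CT) 0, 4, 8, 12, 16 or 20 h. Every group of diet and time held 3 libraries, 2 from males and 1 from a female, and the labels name no transgene or deletion in any group. The protocol text gives an age of 8 to 12 weeks at purchase and names C57BL/6J males only, whereas the sample labels name 12 of the libraries as female, and the sample labels were followed. Food was freely available, so feeding time was not set by the design. Nothing in the labels says more of the replicates than their numbers and sex, so p-values measure the spread between these libraries.

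Liver cells release glucose in the fasted state by breaking down glycogen and by gluconeogenesis, the synthesis of glucose from lactate, glycerol and amino acids. Gluconeogenesis runs mainly in hepatocytes near the portal vein, while glycolysis and lipid synthesis from sugar are strongest around the central vein. Glucagon and glucocorticoids raise, and insulin lowers, transcription of the enzymes of glucose release, through factors that include CREB, PGC-1alpha and FOXO1, whereas glucose itself raises glycolytic genes through the factor ChREBP. Since feeding and the liver clock both act on these genes, their transcripts are known to vary over the day.

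Library totals ran from 52.6 to 86.7 M counts (M, 10 to the power 6) with a median of 64.4 M, and levels below are CPM (counts scaled to a library total of 1 M) after scaling by TMM, a method that sets libraries to a common level of most genes. The libraries fell into 2 kinds by the mitochondrial gene mt-Nd6, called low (21 libraries, 8 control and 13 MCD, 41.6 to 118.9 CPM) and high (15 libraries, 10 control and 5 MCD, 414.1 to 924.6 CPM). What the kinds stand for is not given in the labels, so the diet effect was also fitted within each kind. The 2 control males at CT8 share 1 column name and are called control CT08 a and b. A score without unit placed each library between the diets over 868 genes, with the mean MCD library of the other times at 1. Genes and means were set from the libraries of the other times, so the split of those libraries was built in. Control CT08 a scored 1.02, inside the MCD range of 0.19 to 1.96 and outside that of the other 17 control libraries (-1.44 to -0.44). At CT8 itself, control CT08 b and control CT08 3 scored -1.12 and -0.63, and MCD CT08 1, 2 and 3 scored 0.19, 0.69 and 1.21. The lowest MCD score was that of MCD CT08 1. Whether control CT08 a carries the right label was not tested, so values at CT8 hold only as far as the labels do. Calls of the 8 genes that change without control CT08 a are given. Summed markers of hepatocytes stood at 109121 ± 12060 CPM in control and 112154 ± 16345 CPM in MCD livers (SD, n = 18 libraries each), most of it from albumin (Alb, 73124 and 79903 CPM). Of the 7 hepatocyte markers measured, 4 fell on MCD (Ttr, Apoa1, Fgb and Serpina1a, the last by 0.77 on the log2 scale) and 1 rose (Ahsg), with a median difference of -0.27, against 3 higher and 2 lower with library totals as the scaling. Their part in the levels of the genes below was not tested. None of 5 adipocyte markers and 2 of 7 markers of exocrine pancreas were among the genes measured.

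On the MCD diet, transcripts of 3 enzymes, glucose-6-phosphatase (G6pc), fructose-1,6-bisphosphatase (Fbp1) and liver pyruvate kinase (Pklr), and of the glucose transporter GLUT2 (Slc2a2) fell, while those of the coactivator PGC-1alpha (Ppargc1a) rose. Averaged over the 6 times, 5 of the 8 genes passed an adjusted p of 0.05 in edgeR's quasi-likelihood F test, 1 higher and 4 lower. Without control CT08 a the same 5 were called, against 49.5% of all genes. The same test called 46.6% of all genes tested, 25.3% higher and 21.2% lower, so 5 of 8 is close to the share in the table as a whole. The median difference was -0.14 (log2) over the 8 genes and 0.02 over all genes. Scaled by library totals alone, the median over all genes was 0.27 and that over the 8 genes 0.11, with 2 genes called higher and 3 lower, and 10633 of all genes were called higher and 1540 lower, against 5130 and 4296 with TMM. Every difference below is therefore relative to most genes in these libraries, and fewer cells of a type cannot be told apart from less RNA per cell in such whole-tissue samples. Set per kilobase of exon, the mean level on the control diet was highest for Fbp1 (646 CPM per kb), followed by Pklr (332), Pck1 (257), G6pc (167) and Slc2a2 (73.2), with Foxo1 (5.30), Irs2 (5.18) and Ppargc1a (1.82) far below.

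**Figure D1:**
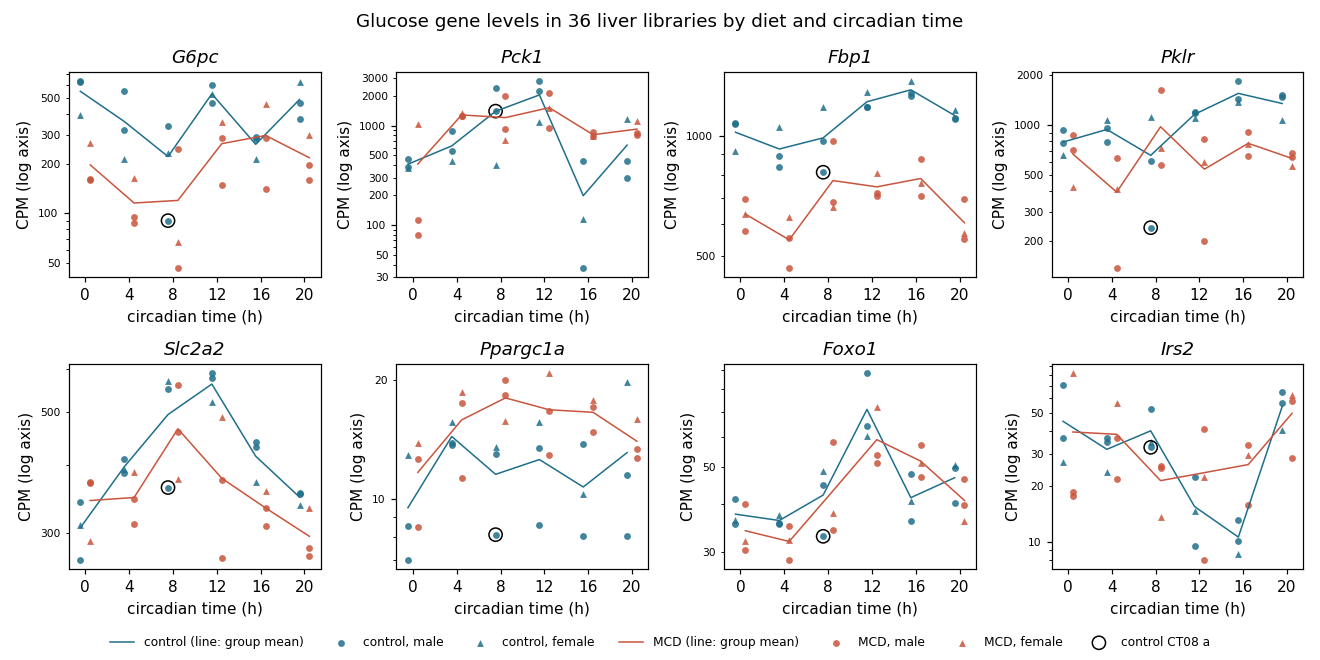
Level of each gene (TMM-scaled CPM, log axis) against circadian time in 36 liver libraries. Points are libraries, circles males and triangles females, lines join the means of 3 libraries, and the ring marks control CT08 a. Fbp1 on MCD lay below control in all libraries at 5 of 6 times, while Pck1 points of one group spread over more than a factor of 10 at CT0 on MCD and CT16 on control.

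G6pc encodes the catalytic subunit of glucose-6-phosphatase, which frees glucose from glucose-6-phosphate in the last step shared by gluconeogenesis and glycogen breakdown. Its level on the control diet ran from 90.0 to 635 CPM with a median of 385 CPM, and on MCD from 46.3 to 462 CPM with a median of 162 CPM. 17 of the 18 MCD libraries lay below the control median, and the lowest control library was control CT08 a, the next lowest being at 214 CPM. At CT4 the control libraries held 320, 550 and 215 CPM and the MCD libraries 87.6, 95.1 and 163 CPM. At CT16 the values overlapped fully, with 281, 292 and 214 CPM on control against 288, 140 and 462 CPM on MCD. The groups did not overlap at CT0, 4, 12 and 20, MCD being lower each time. Over the 6 times G6pc fell by 1.03 ± 0.21 on the log2 scale (SE), or to 0.490-fold, with adjusted p = 3.03e-04, and it was lower at 5 of 6 times. Within the low kind of library the difference was -0.68 (adjusted p = 0.152) and within the high kind -1.82 (adjusted p = 0.00244). At single times only CT4 passed (-1.70 ± 0.53, adjusted p = 0.0273), and that call was lost without any 1 of 4 male libraries of CT4, with adjusted p up to 0.158. Without control CT08 a, CT0 passed too (-1.54 ± 0.50, adjusted p = 0.0385).

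The G6pc gene lies on chromosome 11, from 101367561 to 101377903 on the plus strand of GRCm38, and overlaps no other annotated gene. Its promoter is shown because the element by which insulin is known to lower this gene sits in it, a FOXO-binding insulin response sequence with the letters CAAAACA, read here on the reverse strand as the capitals TGTTTTG (RefSeq, GRCm38.p6, chr11:101367466-101367560, plus strand).
G6pc: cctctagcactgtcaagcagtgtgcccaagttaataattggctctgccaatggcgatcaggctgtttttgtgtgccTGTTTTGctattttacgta
The match starts 174 bases before the RefSeq start site, and 5.56% of 32851 promoter windows of 250 bases hold these letters on either strand. The palindrome TTACGTAA, a form of the cAMP response element, begins 162 bases before the same start, its last base lying beyond the end of the printed stretch, and is in 0.113% of the windows.

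Pck1 encodes cytosolic phosphoenolpyruvate carboxykinase, which commits oxaloacetate to gluconeogenesis and is the classical transcript raised by fasting. It was the most variable of the 8 genes, from 36.9 to 2788 CPM on control (median 452 CPM) and from 80.1 to 2107 CPM on MCD (median 933 CPM). In 16 of 18 MCD libraries it lay above the control median. Control libraries held 2788, 2225 and 1076 CPM at CT12 and 36.9, 440 and 114 CPM at CT16, a fall of the group mean from 2030 to 197 CPM within 4 h. MCD libraries held 937, 2107 and 1490 CPM at CT12 and 864, 780 and 781 CPM at CT16, so the mean went from 1511 to 808 CPM. At CT0 the MCD males held 80.1 and 111 CPM and the MCD female 1039 CPM, whereas the 3 control libraries lay between 377 and 465 CPM. The diets did not overlap at CT4 and CT16, MCD being higher at both times. Averaged over the day the difference was 0.49 ± 0.32 (log2, 95% interval -0.18 to 1.16, adjusted p = 0.225), which did not pass. With 1 library left out it ran from 0.14 (without MCD CT00 3) to 0.72 (without control CT16 2). It was 0.29 within the low kind (adjusted p = 0.691) and 0.28 within the high kind (adjusted p = 0.716). The widest single-time difference, 2.03 ± 0.81 at CT16, had an adjusted p of 0.101. This interval is wide, so the data do not show that the level was the same on the 2 diets.

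Pck1 lies on chromosome 2, from 173153048 to 173159273 (GRCm38, plus strand), with no overlapping gene. Its promoter is printed because it holds the cAMP response element through which glucagon is known to act, in capitals (RefSeq, GRCm38.p6, chr2:173152823-173153047, plus strand).
Pck1: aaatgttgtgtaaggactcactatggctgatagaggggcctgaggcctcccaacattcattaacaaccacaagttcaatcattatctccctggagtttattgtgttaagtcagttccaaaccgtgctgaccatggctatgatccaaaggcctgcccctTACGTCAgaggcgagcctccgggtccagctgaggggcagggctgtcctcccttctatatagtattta
The letters TACGTCA start 92 bases before the RefSeq start site and are found, on either strand, in 1.08% of all promoter windows. TACGTCA and TTACGTAA were searched after the promoters of these genes had been seen.

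Fbp1 encodes fructose-1,6-bisphosphatase, which turns fructose-1,6-bisphosphate into fructose-6-phosphate, the step opposed by phosphofructokinase in glycolysis. Of the 8 genes it separated the diets most cleanly. Control libraries ran from 811 to 1376 CPM with a median of 1110 CPM, and MCD libraries from 465 to 973 CPM with a median of 690 CPM. All 18 MCD libraries lay below the control median and 16 of them below the lowest control library. At CT20 the control libraries held 1113, 1108 and 1165 CPM and the MCD libraries 550, 696 and 570 CPM. At CT8 the ranges met, with 811 CPM in control CT08 a, 975 CPM in control CT08 b and 1186 CPM in the control female, against 973, 685 and 662 CPM on MCD. The mean was 1100 ± 162 CPM for control against 682 ± 123 CPM for MCD (SD, n = 18 each), a fall of 0.69 ± 0.06 on the log2 scale (0.619-fold, adjusted p = 1.07e-09). It was lower at all 6 times and passed by itself at CT0, 4, 12, 16 and 20, with differences from -0.69 to -0.90. Each of those calls was kept whichever library was left out. At CT8 the difference was -0.35 ± 0.15, and -0.48 ± 0.15 without control CT08 a (adjusted p = 0.0604). Fbp1 fell in both kinds of library, by 0.70 in the low kind (adjusted p = 2.19e-04) and by 0.77 in the high kind (adjusted p = 6.89e-04), and it was the single gene of the 8 called in both. The gene is on chromosome 13, from 62864753 to 62888282 on the minus strand of GRCm38, and overlaps no other gene.

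Markers of periportal hepatocytes, the zone where gluconeogenesis is strongest, were read beside G6pc and Fbp1. Control libraries had a summed level of 6104 ± 660 CPM (5242 to 7586) and MCD libraries one of 4995 ± 619 CPM (3907 to 6121), and 5 of 8 fell while 1 rose (2 and 2 with library totals as the scaling). For pericentral markers the sum was 6802 ± 2384 CPM in control libraries (1698 to 12004, the lowest being control CT08 a, below every MCD library) against 6932 ± 2286 CPM in MCD libraries (3946 to 11647), and 1 of those 8 genes rose and 1 fell (5 and 1 with library totals as the scaling). Markers of Kupffer cells and other macrophages summed to 406 ± 121 CPM in control libraries (282 to 683, the highest being control CT08 a) against 542 ± 121 CPM in MCD libraries (374 to 810), with 7 of 8 higher. All 8 markers of each of these 3 lists were in the table and above 1 CPM on average. The part of these markers in the levels of G6pc and Fbp1 was not tested.

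Pklr encodes pyruvate kinase of liver, the last step of glycolysis, and from a start site further upstream the enzyme of red cells. Its level ran from 240 to 1836 CPM on control with a median of 1082 CPM, and from 137 to 1625 CPM on MCD with a median of 646 CPM. The lowest control value was again control CT08 a, the next being 602 CPM, and 17 of 18 MCD libraries were below the control median. At CT16 the control libraries held 1836, 1443 and 1372 CPM and the MCD libraries 902, 651 and 772 CPM, without overlap. At CT8 the order was turned in part, with 240, 602 and 1124 CPM on control against 1625, 576 and 725 CPM on MCD. The diets did not overlap at CT4, 12, 16 and 20, with MCD lower at each. Over the day Pklr fell by 0.69 ± 0.20 on the log2 scale (0.620-fold, adjusted p = 0.00585) and was lower at 5 of 6 times, but no single time passed. Without control CT08 a, CT4 passed (-1.26 ± 0.44, adjusted p = 0.0428). The difference was -0.67 in the low kind (adjusted p = 0.174) and -1.04 in the high kind (adjusted p = 0.0602), and in the 24 male libraries alone -0.58 (adjusted p = 0.109). Red-cell markers in these livers summed to 275 ± 83.5 CPM in control libraries (130 to 453) against 151 ± 43.5 CPM in MCD libraries (93.7 to 273), with 4 of 6 measured markers lower and Slc4a1 under 1 CPM. Their part in the Pklr level was not tested.

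Pklr spans chromosome 3 from 89136142 to 89146784 (GRCm38, plus strand) and overlaps Hcn3, a channel gene on the other strand. Hcn3 had a mean of 10.3 CPM and a difference of -1.70 ± 0.51 (log2, adjusted p = 0.00781), and whether counting used the strand is not given in the sources used here. The start site used in liver is known for its carbohydrate response element, the site of ChREBP, which is why this stretch is shown with that match in capitals (RefSeq, GRCm38.p6, chr3:89136373-89136571, plus strand).
Pklr: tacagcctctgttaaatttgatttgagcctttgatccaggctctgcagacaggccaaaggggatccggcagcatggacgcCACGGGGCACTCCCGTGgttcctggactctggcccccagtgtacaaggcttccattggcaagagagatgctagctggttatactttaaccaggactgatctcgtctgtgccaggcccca
The match to the consensus of this element, a pair of E-box parts 5 bases apart, starts 170 bases before the second of 2 RefSeq starts of this gene. Matches to it on either strand are in 0.387% of the 32851 windows and in no other of the 9 promoter windows of the 8 genes. The E-box CACGTG, the FOXO core GTAAACA and the 3 other motifs were searched alike: CACGTG (6.02% of windows) was found in the Irs2 window alone, 44 bases before the start, CAAAACA also there at 37 bases, and GTAAACA (3.17%) in none of the 9.

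Slc2a2 encodes GLUT2, the transporter that carries glucose across the hepatocyte membrane in either direction. It ranged from 268 to 589 CPM on control (median 390 CPM) and from 270 to 561 CPM on MCD (median 353 CPM), so the diets overlapped widely, and 15 of 18 MCD libraries were below the control median. At CT12 the control libraries held 578, 589 and 522 CPM and the MCD libraries 376, 270 and 489 CPM. At CT0 the control libraries held 343, 268 and 311 CPM and the MCD libraries 371, 372 and 290 CPM. MCD was lower without overlap at CT12, 16 and 20. The mean difference was -0.21 ± 0.07 (log2, 0.867-fold, adjusted p = 0.0195), -0.25 in the low kind (adjusted p = 0.176) and -0.15 in the high kind (adjusted p = 0.373). With library totals as the only scaling it became 0.05 (adjusted p = 0.453), so its direction depends on the scaling. CT12 passed by itself (-0.58 ± 0.18, adjusted p = 0.0271), a call lost without any 1 of the 4 male libraries of CT12 (adjusted p up to 0.194) and under totals (adjusted p = 0.171). Slc2a2 lies on chromosome 3 from 28697903 to 28731359 (GRCm38, plus strand) and overlaps the antisense transcript 1700112D23Rik, whose reads cannot be told apart without knowing how strand was used.

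Ppargc1a encodes PGC-1alpha, a coactivator that is induced in fasting and acts with FOXO1 and HNF4A on gluconeogenic genes. Its transcript was the least abundant of the 8 and went the other way from the enzymes that fell. Control libraries ran from 6.99 to 19.7 CPM (median 13.0 CPM) and MCD libraries from 8.49 to 20.8 CPM (median 15.8 CPM), and 13 of 18 MCD libraries lay above the control median. At CT8 the control libraries held 8.11 (a), 13.0 (b) and 13.5 CPM and the MCD libraries 18.3, 20.0 and 15.8 CPM. At CT4 they held 13.7, 13.8 and 15.7 CPM on control against 11.3, 17.5 and 18.7 CPM on MCD, overlapping. The mean was 12.0 ± 3.43 CPM for control against 15.5 ± 3.23 CPM for MCD (SD, n = 18 each), a rise of 0.38 ± 0.10 on the log2 scale (1.30-fold, adjusted p = 0.00232) seen at all 6 times. No single time passed. The rise was 0.35 within the low kind (adjusted p = 0.0810) and 0.37 within the high kind (adjusted p = 0.129). Ppargc1a is on chromosome 5, from 51454250 to 51567726 on the minus strand of GRCm38.

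Foxo1 and Irs2 stand on the insulin side of this control. FOXO1 is the factor that insulin signalling expels from the nucleus, and IRS2 is the adaptor that links the insulin receptor to that signal and is itself a FOXO1 target. Foxo1 ran from 32.9 to 88.2 CPM on control (median 41.0 CPM) and from 28.5 to 72.1 CPM on MCD (median 39.9 CPM), with a difference of -0.07 ± 0.08 (log2, 95% interval -0.23 to 0.08, adjusted p = 0.458). It was -0.09 in the low kind and -0.15 in the high kind, whereas with totals as the scaling it was 0.18 (adjusted p = 0.0154). Irs2 ran from 8.59 to 70.9 CPM on control (median 33.5 CPM) and from 7.94 to 81.8 CPM on MCD (median 27.0 CPM). Its daily mean difference was 0.15 ± 0.23 (95% interval -0.32 to 0.63, adjusted p = 0.619), 0.45 in the low kind and -0.41 in the high kind, and -0.25 in males alone. Without the MCD female of CT0, at 81.8 CPM against 17.6 and 18.5 CPM in the males, it was -0.03. At CT16 Irs2 stood at 10.1, 13.0 and 8.59 CPM on control against 33.3, 15.8 and 29.5 CPM on MCD, with no overlap (1.30 ± 0.57, adjusted p = 0.133). At CT8 the order was the other way, with 32.4, 52.6 and 34.5 CPM on control above 25.0, 25.7 and 13.5 CPM on MCD (-0.89 ± 0.56). Foxo1 lies on chromosome 3 (52268336 to 52353221, plus strand) and Irs2 on chromosome 8 (10984681 to 11008458, minus strand) of GRCm38, and each overlaps an annotated noncoding transcript. Ppargc1a overlaps 4 genes that the annotation leaves to be experimentally tested, and Foxo1 overlaps another of this class, Gm38034, on its own strand.

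**Figure D2:**
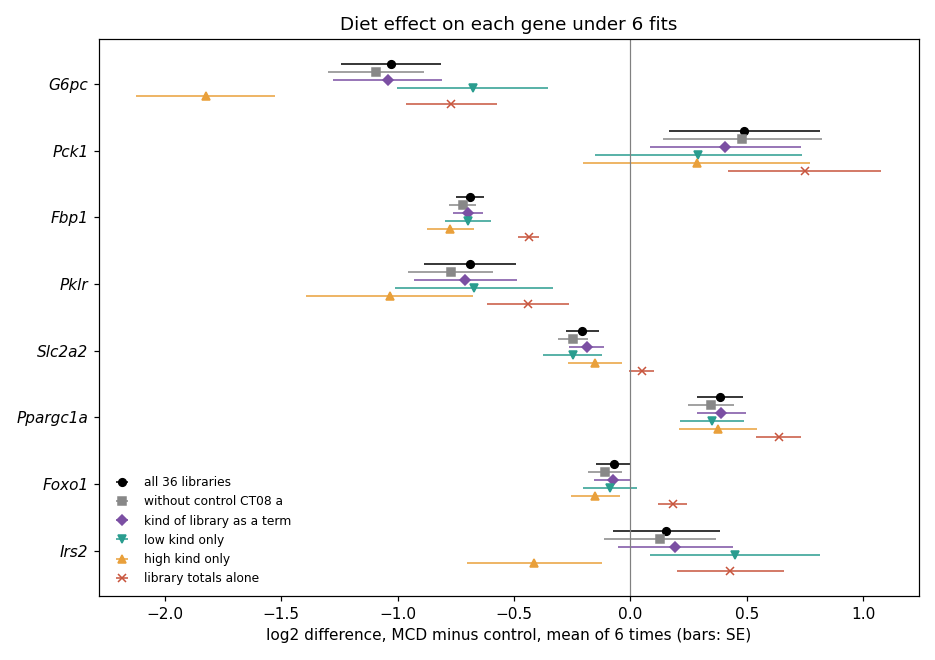
Difference between the diets in each gene (log2, MCD minus control, mean of 6 times) with its SE under 6 fits. Fbp1, G6pc and Pklr lay below 0 and Ppargc1a above 0 in each fit, while Slc2a2 and Foxo1 changed side with library totals alone and Irs2 in the high kind of library.

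Taken time by time, 7 of the 48 pairs of gene and time passed, all of them lower on MCD: Fbp1 at 5 times, G6pc at CT4 and Slc2a2 at CT12. The test called 12.6% of all genes at CT0 (6.02% lower), 18.2% at CT4 (8.71% lower), 1.3% at CT8 (0.751% lower), 15.2% at CT12 (7.13% lower), 12.5% at CT16 (5.99% lower) and 11.3% at CT20 (5.6% lower). With 1 library left out, 6 to 9 pairs passed, and the 9 without control CT08 a include G6pc at CT0 and Pklr at CT4. At an unadjusted p of 0.05, 17 of the 48 pairs passed, while of the 20249 genes 2550 (CT8) to 6333 (CT4) passed at a single time. None of the 8 genes was called at CT8 by edgeR or DESeq2, where 2 had an unadjusted p under 0.05, Fbp1 and Ppargc1a. Without control CT08 a, 6.08% of all genes were called at CT8 and again none of the 8, with Fbp1 and G6pc at an unadjusted p under 0.05. MCD and control libraries did not overlap for 27.8% of all genes at CT0, 33.9% at CT4, 13.2% at CT8, 29.8% at CT12, 35.2% at CT16 and 29.1% at CT20. For G6pc the difference was widest at CT4 and near 0 at CT16 (0.13 ± 0.52), and for Pck1 and Irs2 it was widest at CT16.

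**Figure D3:**
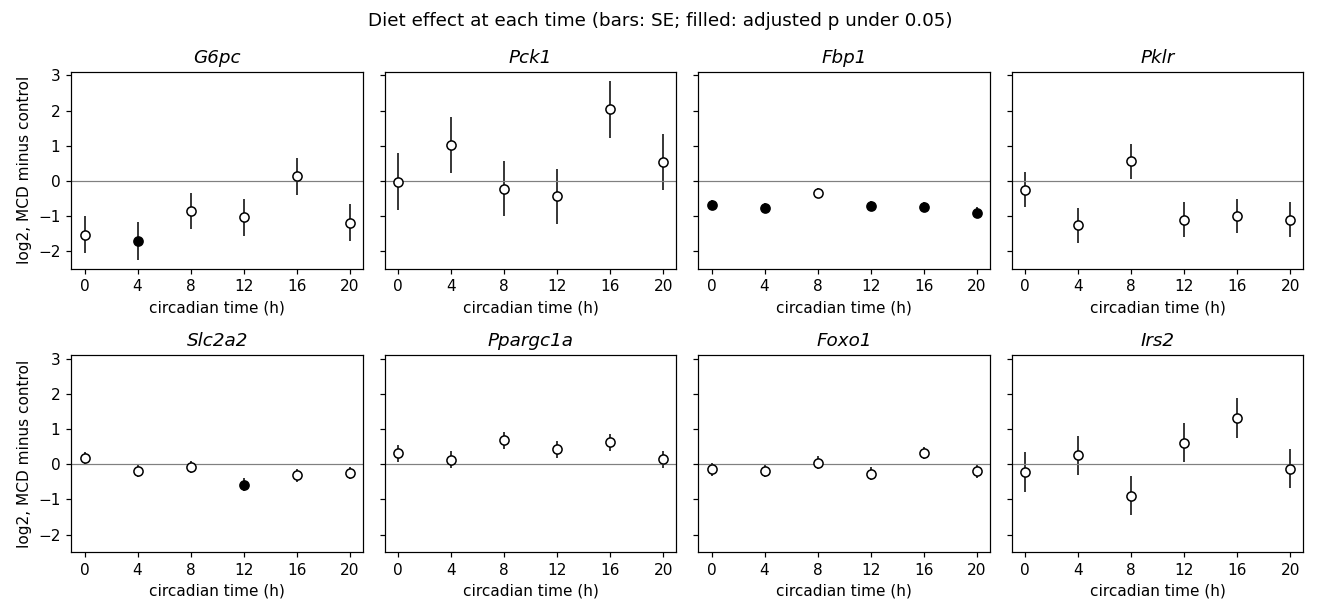
Difference between the diets at each circadian time (log2, MCD minus control, 3 libraries each) with its SE, filled where the adjusted p was under 0.05. The filled points are Fbp1 at CT0, 4, 12, 16 and 20, G6pc at CT4 and Slc2a2 at CT12.

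A 24 h rhythm, tested as a cosine plus sine wave through the 6 time means, was called on the control diet for Slc2a2, Fbp1, Foxo1 and Irs2, 4 of the 8 genes against 17.8% of all genes. On MCD it was called for Slc2a2, Fbp1 and Foxo1, 3 of the 8 against 28.2% of all genes. Slc2a2 had a fitted peak-to-trough range of 0.81 (log2) with a peak at CT 10.8 h on control (adjusted p = 8.05e-04) and of 0.51 with a peak at 8.3 h on MCD (adjusted p = 0.0264). Its control group means climbed from 307 CPM at CT0 to 563 CPM at CT12 and were back at 349 CPM at CT20. Foxo1 peaked at 13.2 h on control (range 0.66, adjusted p = 0.00920) and at 13.6 h on MCD (range 0.87, adjusted p = 3.70e-04), and its means at CT12 were 70.9 CPM (control) and 59.0 CPM (MCD) against 36.2 and 31.9 CPM at CT4. Fbp1 had the narrowest of the called rhythms, 0.48 with a peak at 15.7 h on control (adjusted p = 0.0165) and 0.45 with a peak at 12.8 h on MCD (adjusted p = 0.0164).

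Irs2 on control had a range of 1.82 and a peak at 1.4 h (adjusted p = 0.0209), with group means of 54.0 CPM at CT20 and 10.6 CPM at CT16. On MCD its range was 1.12 with a peak at 22.7 h (adjusted p = 0.168). With 1 library left out that range ran from 0.49 (without MCD CT00 3) to 1.53 (without MCD CT12 2). Pck1 had a control range of 2.13 with a peak at 8.7 h, the widest of the 8, and an adjusted p of 0.0712, and on MCD 1.33 with a peak at 10.2 h (adjusted p = 0.296). G6pc showed 0.70 on control with a peak at 21.8 h (adjusted p = 0.469) and 1.34 on MCD with a peak at 16.6 h (adjusted p = 0.0548). Pklr showed 1.04 on control with a peak at 17.0 h (adjusted p = 0.159) and 0.39 on MCD (adjusted p = 0.745), and Ppargc1a 0.18 on control (adjusted p = 0.805) and 0.54 on MCD (adjusted p = 0.105). On control, Irs2 was lowest at CT16, 4 h after the highest group means of Slc2a2 and Foxo1.

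Several of these calls rest on single libraries. The control call was lost for Fbp1 without control CT04 1 (adjusted p = 0.0590) and for Irs2 without control CT00 2 (0.0700) or control CT12 2 (0.0646). The MCD call was lost for Fbp1 without MCD CT00 1 (adjusted p = 0.0552) and for Slc2a2 without MCD CT08 1 (0.118), MCD CT20 1 (0.0743) or MCD CT20 2 (0.0690). Pck1 gained a control call without control CT08 3, CT16 2, CT20 3 or MCD CT00 3 (lowest adjusted p = 0.0146) and an MCD call without the high female MCD CT00 3, with a range of 2.68 (adjusted p = 0.00536). In males alone Pck1 was called on control (range 3.00, adjusted p = 0.0131) and on MCD (2.86, adjusted p = 0.0136), whereas the control calls of Fbp1 (adjusted p = 0.0510) and Foxo1 (0.0605) and the MCD call of Fbp1 (0.0720) were lost. Tested as any difference among the 6 times, Pck1 passed on control (adjusted p = 0.0449), while Fbp1 on control (0.0996) and Slc2a2 on MCD (0.0842) did not. G6pc on MCD passed over all libraries with DESeq2 (adjusted p = 0.0370) and with library totals (0.0448), and with edgeR and TMM without 1 of 7 libraries, with a range of 1.93 without MCD CT08 1 (adjusted p = 0.00148). Pklr on control passed without control CT08 3 (adjusted p = 0.0357) and Ppargc1a on MCD without MCD CT08 3 (adjusted p = 0.0444). The calls of Foxo1 on either diet and of Slc2a2 on control were kept in each of 36 fits with 1 library left out, although that of Foxo1 on control was lost in males alone.

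The rhythm itself was not called different between the diets for any of the 8 genes by edgeR or DESeq2, and none had an unadjusted p under 0.05, while edgeR called 4.87% of all genes. Without control CT08 a, Slc2a2 had an unadjusted p of 0.0206 in edgeR (adjusted p = 0.144). In edgeR over all 36 libraries the smallest adjusted p was 0.264, for Slc2a2. Its range differed there by -0.31 (log2, MCD minus control) and its fitted peak by -2.5 h. For G6pc the range differed by 0.64 and the fitted peak by -5.2 h (adjusted p = 0.346). For Irs2 the range differed by -0.70 (adjusted p = 0.495), and by -1.32 to -0.30 with 1 library left out. A rhythm called on control and not on MCD is therefore not shown to differ.

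**Figure D4:**
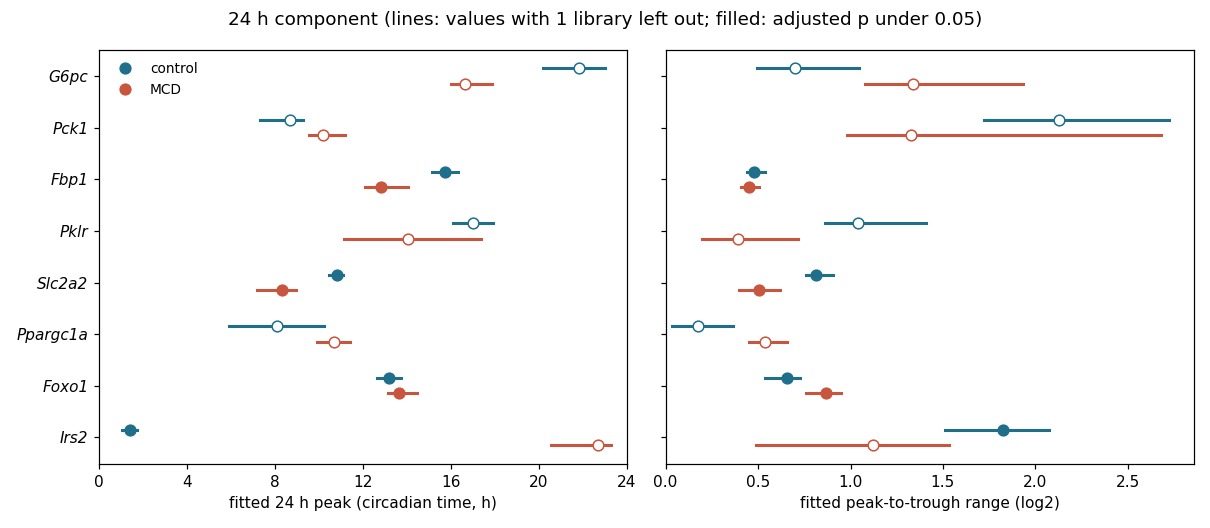
Fitted 24 h peak (left, circadian time in h) and peak-to-trough range (right, log2) of each gene by diet. Points are filled where the adjusted p was under 0.05 and lines span the values with 1 library left out. Foxo1 peaked between CT12 and CT16 on either diet and Irs2 on control near CT0.

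The sexes were compared with 6 female and 12 male libraries per diet. Ppargc1a was the 1 gene of the 8 with a called sex difference, 0.36 ± 0.10 (log2) higher in females (adjusted p = 0.0272), where 9.44% of all genes were called and 5.17% were higher in females. Its mean was 14.6 CPM in control females, 10.6 CPM in control males, 17.2 CPM in MCD females and 14.7 CPM in MCD males. The call was lost without the control female of CT0, CT12 or CT20, with adjusted p up to 0.0872. No gene of the 8 passed for a diet effect that differed between the sexes, by edgeR or DESeq2, against 1.77% of all genes with edgeR, and Irs2 alone had an unadjusted p under 0.05. With control CT08 a left out, G6pc joined it (gap 0.91 ± 0.40, adjusted p = 0.300 in edgeR). Irs2 differed by -0.20 between the diets in males and by 0.87 in females, a gap of 1.07 ± 0.45 (adjusted p = 0.307). Pck1 differed by 0.14 in males and 1.20 in females (gap 1.07 ± 0.73, adjusted p = 0.612), and G6pc by -1.29 in males and -0.50 in females (gap 0.79 ± 0.43, adjusted p = 0.484). With 1 library left out the gap ran from 0.42 to 1.58 for Pck1 and from 0.70 to 1.32 for Irs2. Both were lowest without the female MCD CT00 3. Fbp1 differed by -0.65 in males (adjusted p = 1.79e-07) and by -0.78 in females (adjusted p = 5.71e-06). In males 4 of the 8 genes passed and in females Fbp1 alone, G6pc being at an adjusted p of 0.336 there. Pklr passed as well once control CT08 a was left out, in males (-0.71, adjusted p = 0.0144) and in females (-0.88, adjusted p = 0.0411). At an unadjusted p under 0.05 in edgeR, 5 of the 8 passed in males and 4 in females, against 9525 and 7061 of the 20249 genes. Adjusted calls over all genes by sex are not given here and females had fewer libraries, so these counts do not show a sex difference. As every female had replicate number 3, sex and that number cannot be told apart.

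Genes with the profile most like each of the 8 were found as the smallest root-mean-square (RMS) difference of log2 CPM over the 36 libraries, each gene centred at 0, among 13839 tested genes with a mean of at least 1 CPM. For Fbp1 they were Prodh2 (0.15), an enzyme of hydroxyproline breakdown, Sod1 (0.17), the cytosolic superoxide dismutase, and Aco1 (0.18), the cytosolic aconitase, against an SD of 0.42 for Fbp1 itself. For Pklr they were Khk (0.32), which encodes the fructose-phosphorylating ketohexokinase, Cyp2d40 (0.37) and Pdk1 (0.42), a kinase of pyruvate dehydrogenase, with an SD of 0.82 for Pklr. For Slc2a2 they were Mia2 (0.20), Bbox1 (0.21) and Hoga1 (0.21), for Foxo1 Atl2, Gin1 and Zfyve9 (0.21 to 0.23), and for Ppargc1a Enpp1 (0.28) and Anpep (0.31). G6pc was nearest to 4732465J04Rik (0.61), Ces1e and 5033403H07Rik (both 0.65), Pck1 to Angptl4 (0.98), the fasting-induced lipase inhibitor, Slc7a2 (0.99) and Pim3 (1.00), and Irs2 to Tgif1 (0.65), Ccng2 (0.68) and Wdr81 (0.68). The SDs of these genes themselves were 0.33 for Slc2a2, 0.37 for Foxo1, 0.42 for Ppargc1a, 0.96 for G6pc, 1.40 for Pck1 and 0.90 for Irs2.

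The wider glucose pathway was read from 6 lists with 110 tested genes, of which 28 were called higher and 44 lower on MCD, with a median difference of -0.08. Over all genes 46.6% were called, 25.3% higher and 21.2% lower. With control CT08 a left out, 28 of the 110 were higher and 52 lower. Without it, 11 rose and 7 fell in glycolysis and hexose entry, 3 and 6 in gluconeogenesis, and 4 and 10 in the fate of pyruvate. The counts were 2 and 9 for glycogen, 7 and 7 for insulin and glucagon signalling and 1 and 13 for the regulators. With totals as the scaling the split was 55 higher and 18 lower, so counts per direction are relative to the scaling. That split was 17 and 2 for glycolysis and hexose entry, 7 and 3 for gluconeogenesis, 4 and 2 for the fate of pyruvate, 4 and 6 for glycogen, 14 and 0 for insulin and glucagon signalling and 9 and 5 for the regulators. Among 24 genes of glycolysis and hexose entry, 10 rose and 5 fell. Khk fell by 0.92 ± 0.15 on the log2 scale, from 649 to 345 CPM. The phosphofructokinase Pfkp (0.85 ± 0.18, 4.05 to 7.16 CPM), the aldolase Aldoa (0.63 ± 0.06, 92.0 to 145 CPM) and the pyruvate kinase Pkm (0.68 ± 0.17, 19.2 to 31.5 CPM) rose. Within the low kind of library Pfkp (0.72, adjusted p = 0.107) and Pkm (0.44, adjusted p = 0.207) did not pass. Beside these rises, 7 of 8 macrophage, 3 of 7 endothelial, 2 of 7 measured stellate cell and 3 of 8 leukocyte markers were higher on MCD. Of the stellate cell markers 1 was lower (0 without control CT08 a), and 7 leukocyte markers were under 1 CPM. The part of these cells in the 3 rises was not tested.

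Of 15 other genes of gluconeogenesis 4 rose and 5 fell. Those that fell include Pcx (-0.57 ± 0.07, 807 to 543 CPM), the pyruvate carboxylase that feeds the pathway, and the cytosolic enzymes Mdh1 (-0.62 ± 0.07) and Got1 (-0.83 ± 0.19), which regenerate oxaloacetate outside the mitochondrion. Got1 did not pass within the high kind of library (adjusted p = 0.141). Pck2, the mitochondrial counterpart of Pck1, rose by 1.53 ± 0.13 from 5.86 to 16.7 CPM (adjusted p = 7.65e-10). The glucose-6-phosphate transporter Slc37a4, which supplies the enzyme made by G6pc, fell from 202 to 163 CPM (-0.30 ± 0.09, adjusted p = 0.0102). Of 14 genes that set the fate of pyruvate 4 rose and 9 fell, among those that fell the pyruvate carrier subunit Mpc2 (-0.41 ± 0.06) and Pdk1 (-1.12 ± 0.14). Mpc1, the partner subunit of Mpc2, rose by 0.40 ± 0.06 (adjusted p = 6.79e-06). With totals as the scaling Mpc2 differed by -0.15 and Mpc1 by 0.65. Pdk4, the pyruvate dehydrogenase kinase induced by fasting, rose by 1.17 ± 0.28, with means of 14.3 ± 10.7 and 41.6 ± 53.3 CPM, and the opposing phosphatase Pdp1 rose by 0.97 ± 0.14. Pdk4 did not pass in males alone (0.76, adjusted p = 0.0606) or within the low kind (1.14, adjusted p = 0.141).

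Of 15 glycogen genes 2 rose and 9 fell. Pygl, the liver glycogen phosphorylase, fell by 1.07 ± 0.08, from 796 ± 136 to 379 ± 76.4 CPM (adjusted p = 1.00e-10), and Ppp1r3b (-0.91 ± 0.24) and Ppp1r3c (-0.63 ± 0.18), which target the phosphatase to glycogen, fell too. Glycogen synthase of liver, Gys2, fell by 0.30 ± 0.09 (adjusted p = 0.00661). Pgm2, a phosphoglucomutase, rose by 1.09 ± 0.12, from 4.73 to 9.99 CPM, while the more abundant Pgm1 fell from 205 to 174 CPM (-0.23 ± 0.06, adjusted p = 0.00122). In insulin and glucagon signalling 7 of 18 rose and 5 fell. Trib3, a pseudokinase known to bind AKT, rose by 2.75 ± 0.22 (6.23 to 32.4 CPM), and Igfbp1, a secreted IGF-binding protein that insulin represses, by 1.76 ± 0.28 (47.3 to 170 CPM). Irs1, the sister adaptor of Irs2, rose by 0.47 ± 0.07, and the insulin receptor Insr fell by 0.31 ± 0.06 and the glucagon receptor Gcgr by 0.15 ± 0.05. Sik1, a kinase that restrains the coactivators of CREB, rose by 0.37 ± 0.13, a call lost without MCD CT04 1 (0.28, adjusted p = 0.0508), in males alone (0.37, adjusted p = 0.0615) and within the low (0.33, adjusted p = 0.236) and the high kind of library (0.42, adjusted p = 0.332). Ppp1r3b did not pass in males alone (adjusted p = 0.0587) or within the high kind (0.120), Irs1 not within the high kind (0.172) and Ppp1r3c not within the low kind (0.223).

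Of 24 transcriptional regulators 1 rose and 11 fell. Mlxipl, which encodes ChREBP, fell by 0.51 ± 0.10 (632 to 451 CPM) and Srebf1, the factor of insulin-driven lipid synthesis, by 1.23 ± 0.17 (632 to 253 CPM). Onecut1, the hepatocyte factor HNF6, fell by 1.46 ± 0.27 and the glucocorticoid receptor Nr3c1 by 0.48 ± 0.05, from 115 ± 12.4 to 82.8 ± 8.05 CPM. Within the high kind of library Onecut1 did not pass (-1.09, adjusted p = 0.332). Foxo3, a relative of Foxo1, fell by 0.39 ± 0.07, and Klf15, a regulator of amino acid breakdown, by 0.37 ± 0.07. The 1 called rise was Atf4, the factor of the amino acid response, at 0.25 ± 0.08 (92.4 to 109 CPM, adjusted p = 0.0126). Hnf4a, the partner of PGC-1alpha on gluconeogenic genes, differed by 0.08 ± 0.05 (adjusted p = 0.258). With totals as the scaling the named falls kept their direction but were smaller, at -0.26 for Mlxipl, -0.98 for Srebf1, -1.21 for Onecut1 and -0.22 for Nr3c1. Slc37a4, Mpc1, Pgm1, Gys2, Insr, Gcgr, Foxo3, Klf15, Atf4 and Hnf4a were chosen for naming after their values were seen, and with totals as the scaling Slc37a4, Pgm1 (0.02, adjusted p = 0.708), Gys2, Insr, Foxo3 and Klf15 did not pass, while Gcgr (0.10, adjusted p = 0.0364) and Hnf4a (0.33, adjusted p = 6.94e-07) were called higher on MCD.

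**Figure D5:**
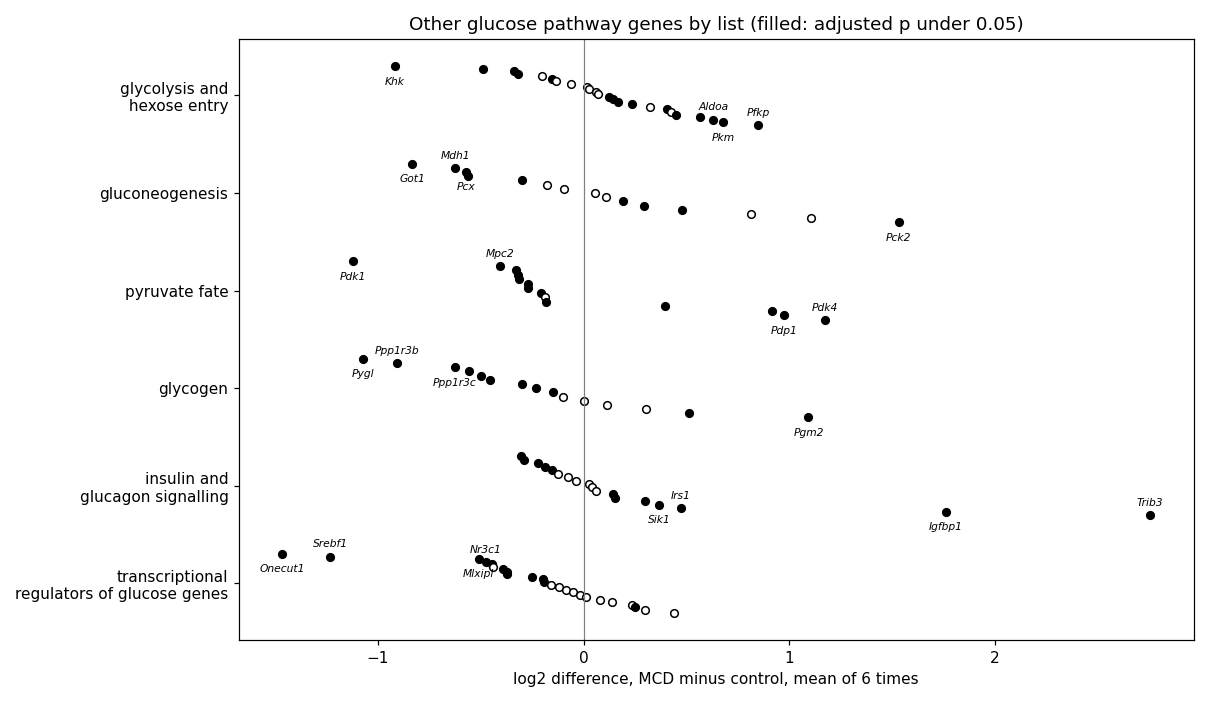
Difference between the diets (log2, MCD minus control, mean of 6 times) of 110 other genes of glucose metabolism, sorted within 6 lists and filled where the adjusted p was under 0.05. Trib3 (2.75), Igfbp1 (1.76) and Pck2 (1.53) lie furthest to the right, and Onecut1 (-1.46), Srebf1 (-1.23) and Pdk1 (-1.12) furthest to the left.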

How the data were processed

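Liver RNA from 36 mice was sequenced from polyadenylated RNA with a stranded kit, per the labels' protocols. Per the file headers, the deposited liver table gives raw counts for each gene and library, whole numbers with no normalization by the authors. The submitters' processing notes name Trimmomatic, HISAT2, StringTie, DESeq2 and the build GRCm39 without versions or roles, and the strand setting is not given in the sources used here. Gene positions and exon lengths came from GENCODE M21 (GRCm38), looked up by gene ID, and promoter sequences from RefSeq (GRCm38.p6), which matched all 8 genes, so these coordinates are not on the build of the counts.

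Counts were tested with edgeR 4.0.16 (R 4.3.3) by quasi-likelihood F tests, with TMM and the tool's filter (minimum count 10). One model, with a coefficient for each of the 12 groups and 1 for sex, was fitted over all 20249 genes, with Benjamini-Hochberg adjustment over all of them and a threshold of 0.05. The diet effect is MCD minus control averaged over the 6 times. Rhythm was tested as a 24 h cosine plus sine wave through the time means of a diet, with its range taken from peak to trough. A sex-by-diet term was added for the test between sexes. Standard errors were taken from the log2 difference and its F value, and 95% intervals use the residual degrees of freedom of the 36 libraries. Within each kind of library, diet, time and sex were additive. The scripts were tested on simulated data. Alternatives were DESeq2 1.42.0, library totals, no filter, a replicate block, no sex term, the kind of library, males only, any difference among times, and leaving out each library in turn.

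Libraries of a group differed by more than sampling noise (chi-square per degree of freedom of at least 25.8), so none was taken as a copy of another, and library totals of at least 52.6 M counts leave the spread between libraries as the main error. The rule for named genes took all 8 genes, up to 4 genes per pathway list with the largest called diet effect and a mean of at least 1 CPM, and the 3 most alike genes per member, of which 1 is not reported here. The 8 genes, the pathway lists and the markers were chosen with earlier results of these data known. Suprachiasmatic nucleus libraries and exon counts were not analysed here.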

Additional observations from a re-analysis of the deposited data

How the results depend on the processing

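The number of the 8 genes called for diet was 5 under DESeq2, library totals, no low-count filter, the replicate block, the kind of library as a term, no sex term and in each of 36 fits with 1 library left out. It was 1 within the low kind (Fbp1) and 2 within the high kind (Fbp1 and G6pc), with fewer libraries in those fits. Pathway genes called were 37 and 42 within these kinds against 72 of 110, and all genes called 4527 and 5070 against 9426. In males alone, also with fewer libraries, 4 of the 8 were called. The count over all genes in males alone is not given here, so the 4 cannot be set against it. Directions turned for Slc2a2 (0.048) and Foxo1 (0.18) with library totals alone, and for Irs2 in males alone (-0.25), within the high kind (-0.41) and without MCD CT00 3 (-0.027, the range with 1 library left out being -0.027 to 0.233); the cause was not tested. All genes called for a difference in rhythm were 986, against 2061 with DESeq2, 527 in males alone and 184 for any difference among the 6 times. With 1 library left out they ran from 646 to 1271, the lowest without control CT04 2. The count of the 8 genes called for sex ran from 0 to 1 with 1 library left out.

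The replicate block used the numbers 1 to 3 without the 2 unnumbered control columns. Deviations of same-numbered males at 1 time correlated at 0.065 to 0.420 (9 of 10 pairs over 0.1) and those of females at 0.307 to 0.532 (6 of 6), and 12 of 16 numbered control libraries correlated best with the MCD library of their own number, a count that includes the females, each the only female of its group. The labels state no pairing and 1 pair lay under 0.1, so the numbers were not taken to pair the mice. Under the replicate block 5 of the 8 genes were called for diet, 9 pairs of gene and time against 7, and 4 rhythms on MCD against 3, G6pc being added (adjusted p = 0.0446). Leaving out control CT08 a alone also gave 9 pairs and the G6pc call (adjusted p = 0.0397), so these moves are not shown to come from the block. The lowest single level of the 8 genes, 6.99 CPM for Ppargc1a, rests on 346 counts.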

Other observations

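Among the 110 pathway genes, 9 had a 24 h rhythm called different between the diets (edgeR, adjusted over all genes), where 4.87% of all genes were called. Trib3 had a range of 2.76 (log2) with a peak at 6.9 h on control and of 1.57 with a peak at 23.4 h on MCD (adjusted p for the difference 0.00365). Gys2, the liver glycogen synthase, had a range of 1.55 with a peak at 11.4 h on control and of 2.16 with a peak at 8.7 h on MCD (adjusted p = 0.00546). Nr0b2, the corepressor SHP, peaked at 2.6 h on control (range 1.52) and at 19.3 h on MCD (range 1.56, adjusted p = 0.0234). Gpt2, the mitochondrial alanine aminotransferase, had a range of 1.13 on control and of 0.26 on MCD (adjusted p = 0.0278). Irs1 had a range of 0.38 on control and 1.09 on MCD with a peak at 21.1 h (adjusted p = 0.0458), while Irs2, as described above, was not called different. Dlat, Mdh2, Gk and Onecut1 were the other 4 genes called, and all 9 were named after their values were seen. Whether these 9 calls hold without control CT08 a or under the other fits is not reported here.

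A diet effect that differed between the sexes was called for 4 of the 110 genes, against 1.77% of all genes: Ldha (0.40, females minus males on the log2 scale, adjusted p = 0.0450), Gpt (-0.50, adjusted p = 0.0446), Mpc1 (-0.42, adjusted p = 0.0255) and Pdpk1 (0.29, adjusted p = 0.0346). These genes encode lactate dehydrogenase A, the cytosolic alanine aminotransferase, a subunit of the mitochondrial pyruvate carrier and the kinase PDK1 of insulin signalling. Whether the 4 calls hold without control CT08 a is likewise not reported here.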
